A study of Saccharomyces cerevisiae with 4 samples.

Results

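The 34 genes described here encode subunits of the yeast 26S proteasome, together with UMP1 and RPN4, and were picked by their ORF names out of the 6063 genes read on the arrays. They comprise 14 subunits of the 20S core, 18 subunits of the 19S regulatory particle, the 20S assembly factor UMP1 and RPN4, the transcription factor of the proteasome genes. Transcripts of Saccharomyces cerevisiae were compared on 4 two-colour spotted arrays, with 2 independent culture pairs for each of 2 experiments. In Experiment 3 (E3), DY1457 cells carrying a plasmid with the Zap1TC allele were set against DY1457 cells carrying the empty vector pYef2, both grown in synthetic galactose medium with 1 µM zinc. Zap1TC is a constitutive form of the zinc-responsive activator Zap1 and was driven by the galactose-inducible GAL1 promoter, on top of the ZAP1 gene that both transformants kept. In Experiment 4 (E4), DY1457 cells were grown in LZM, a medium in which EDTA and citrate buffer the metals, with 3 µM zinc added, and were set against DY1457 cells in LZM with 3000 µM zinc. DY1457 is a haploid wild type strain of the alpha mating type with the markers ade6, can1, his3, leu2, trp1 and ura3, so every group shared that background.

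The proteasome degrades proteins that carry chains of ubiquitin. In the barrel-shaped 20S core, 2 outer rings of alpha subunits gate the entry and 2 inner rings of beta subunits hold the proteolytic sites. The 19S particle caps the core, where Rpn subunits bind and deubiquitinate the substrate and Rpt ATPases unfold it. Rpn4 binds an element shared by the promoters of the proteasome genes and is itself degraded by the proteasome, so that the supply of subunits follows demand. Ump1 helps the 2 half-cores to join and is degraded inside the finished core.

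All 34 genes were read on 3 of the arrays and 33 on replicate 2 of E4, where RPN11 had no usable spot. On all 4 arrays 33 genes were above background in both channels, where above background means brighter than the local background by over 2.6 SD of the local backgrounds in that channel. In each experiment 32 members were brighter than the median gene. Across all genes the replicate arrays correlated with Pearson's r of 0.944 in E3 and 0.940 in E4, and across the members with r of 0.887 and 0.736. The median gap between replicate arrays for a member was 0.0815 on the log2 scale in E3 and 0.0718 in E4. Among controls of the design, ZAP1 was 101-fold higher in Zap1TC cells than in vector cells, and ZRT1, the high-affinity zinc transporter and a Zap1 target, had a log2 ratio of 5.36 in E3 and 6.64 in E4. The alpha-specific genes MF(ALPHA)1, MF(ALPHA)2 and STE3 were above background on all 4 arrays, while of the a-specific genes STE2 was above it on 2 of the 2 arrays that read it, MFA2 on 2 of 3 and MFA1 on 1 of 1. The test sample was labelled with Cy5 on every array and the dyes were not swapped, so the response of a gene and a dye effect particular to it cannot be told apart. Such an effect would carry the same sign in E3 and in E4.

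Zap1TC cells differed from vector cells in 13 of the 34 genes, with 10 transcripts lower, 3 higher and 21 not passing the test. The lower transcripts encoded core subunits in the main (PRE6, PUP2, PRE10, PUP3, PRE2, PRE7 and PRE4), with RPT3, RPN9 and RPN10 of the 19S particle. The higher ones were UMP1, RPN12 and RPN11. A gene was called when its mean log2 ratio of test over reference had a two-sided, Benjamini-Hochberg adjusted p under 0.05 in limma, adjusted over all genes read on both arrays. By this test 29.3% of the 5780 genes were lower and 29.3% higher, so the 29.4% of members called lower were at the level of the whole array, and 8.82% of members were called higher. The sizes were small. The median log2 ratio of the members was -0.07 against 0.00 for all genes, their range was -0.73 to 0.39, and their interquartile range was 0.312 against 0.434 for all genes. Ratios of 22 members were below 0 and of 12 above 0 (49.9% and 50.1% of all genes). The mean ratio of 32 of the 34 stayed within 1.4-fold of 1, as did that of 81.5% of all genes. The study called genes by fold alone, requiring a mean of 1.5-fold or more and neither array under 1.4-fold, and by that rule 1 member was lower (PUP3) and 0 were higher, against 5.35% lower and 7.01% higher among all genes.

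**Figure D1:**
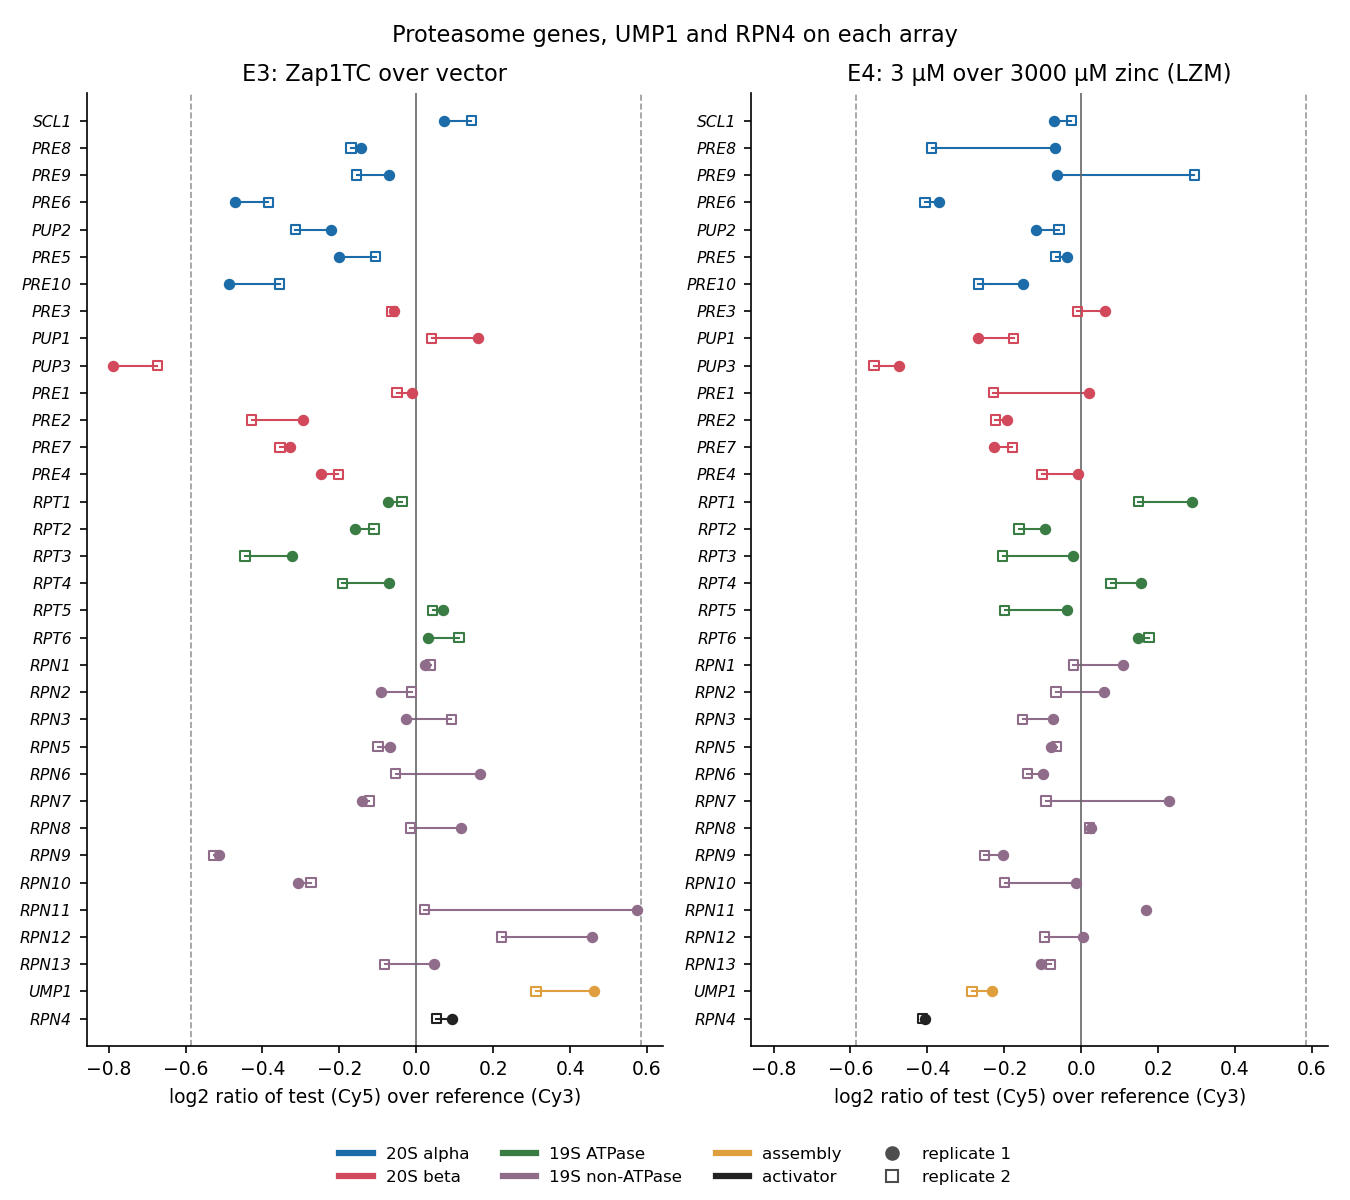
Log2 ratio of test over reference for each of the 34 genes on each array, with E3 (Zap1TC over vector) on the left and E4 (3 µM over 3000 µM zinc in LZM) on the right. Filled circles are replicate 1, open squares replicate 2, colours give the role of the gene and dashed lines mark a 1.5-fold change. PUP3 is the only gene beyond a dashed line on both arrays of an experiment, and RPN4 lies near 0 in E3 and at -0.41 on both E4 arrays.

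In the 20S core, 7 of 14 genes fell in Zap1TC cells and 0 rose, with a median log2 ratio of -0.19. These were 50% and 0%, against 29.3% of all genes in each direction. The alpha ring gave 3 of 7 lower and the beta ring 4 of 7. PUP3 (YER094C), which encodes a beta subunit without a proteolytic site, had the lowest ratio of all members. Its log2 ratio was -0.79 and -0.67 on the 2 arrays, and its normalized intensity was 289 and 223 in Zap1TC cells against 499 and 356 in vector cells. Zap1TC cells were the dimmer channel on both arrays, and PUP3 transcript stood at 0.602 times the vector level (95% confidence interval 0.547 to 0.664, n = 2 arrays, limma adjusted p = 5.58e-06). PRE6 (YOL038W), an alpha subunit, gave log2 ratios of -0.47 and -0.38, or 0.743 times the vector level (0.676 to 0.817, limma adjusted p = 0.000186). PRE10, another alpha subunit, was at 0.747 times the vector level, and PRE2, the beta subunit with the chymotrypsin-like site, at 0.778 times. The other beta subunits with a proteolytic site did not pass the test, PUP1 (trypsin-like) having log2 ratios of 0.16 and 0.04 and PRE3 (caspase-like) -0.06 and -0.06.

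The 19S particle showed fewer called genes in E3, 3 of 18 lower and 2 higher, with a median log2 ratio of -0.03. These were 16.7% and 11.1%, against 29.3% of all genes in each direction. Among the 6 ATPases RPT3 alone was called, at log2 ratios of -0.32 and -0.45. RPN9 (YDR427W), a non-ATPase subunit of the lid, had the lowest ratio of the particle. Its log2 ratio was -0.51 and -0.53, and its normalized intensity was 348 and 226 in Zap1TC cells against 497 and 325 in vector cells. The 2 arrays gave nearly equal ratios, and RPN9 transcript was at 0.697 times the vector level (0.636 to 0.765, limma adjusted p = 4.25e-05). RPN10, a receptor for ubiquitin chains, was at 0.817 times the vector level, while the receptor gene RPN13 had log2 ratios of 0.05 and -0.08. RPN12 (YFR052W), a lid subunit, gave log2 ratios of 0.46 and 0.22 and was 1.27-fold higher in Zap1TC cells (1.13 to 1.41, limma adjusted p = 0.00226). RPN11 (YFR004W), the metalloprotease that removes ubiquitin chains from substrates, was called on ratios that differed widely between the arrays, 0.57 and 0.02, each from 1 spot (limma adjusted p = 0.0427). Without replicate 1 of E3 the RPN11 log2 ratio was 0.02 and its call was lost, as were those of RPN12 (0.22, limma adjusted p = 0.0575) and of PRE4 in the core (-0.20, limma adjusted p = 0.0788).

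UMP1 (YBR173C) had the highest ratio of the 34 genes in E3. Its log2 ratio was 0.46 and 0.31, and its normalized intensity was 1256 and 847 in Zap1TC cells against 911 and 683 in vector cells. The transcript was higher in Zap1TC cells on both arrays, by 1.31-fold (1.18 to 1.45, limma adjusted p = 0.000507). RPN4 (YDL020C) transcript did not pass the test. Its log2 ratio was 0.09 and 0.05, with normalized intensities of 234 and 165 in Zap1TC cells against 219 and 159 in vector cells. The interval of the ratio ran from 0.959 to 1.15 times the vector level (limma adjusted p = 0.322). With loess fitted within print-tip blocks of the slide, the RPN4 log2 ratio was 0.23 and passed the test (limma adjusted p = 0.0082).

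**Figure D2:**
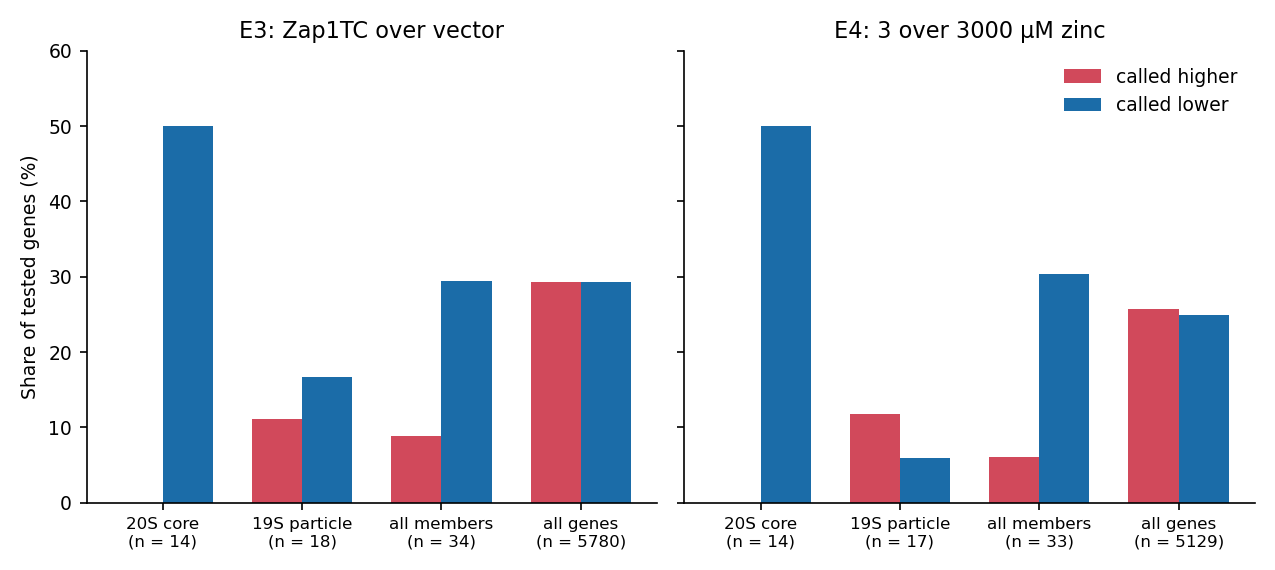
Percentage of tested genes called higher (red) and lower (blue) by limma in E3 (left) and E4 (right) for the 20S core, the 19S particle, all members and all genes on the arrays, with the number tested under each pair of bars. The 20S core has 50% of its genes lower and 0% higher in each experiment.

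Zinc-limited cells in LZM with 3 µM zinc differed from cells with 3000 µM zinc in 12 of the 33 genes that both E4 arrays read. RPN4 fell, as did UMP1, RPN9 and the core genes PRE8, PRE6, PRE10, PUP1, PUP3, PRE2 and PRE7, and 2 ATPase genes, RPT1 and RPT6, rose. The remaining 21 did not pass the test. The 10 lower genes were 30.3% of the members, against 24.9% of the 5129 genes tested, and the 2 higher genes were 6.06%, against 25.7%. The median log2 ratio of the members was -0.10 against 0.00 for all genes, with a range of -0.51 to 0.22 and an interquartile range of 0.205 against 0.355. Ratios of 25 members were below 0 and of 8 above 0 (50.1% and 49.9% of all genes), and 32 of the 33 were within 1.4-fold of 1 (89.3% of all genes). By the study's fold rule 0 members were lower and 0 higher, where 1.93% and 4.64% of all genes were. Most of these calls were near the threshold. With the local background subtracted plainly 4 members were lower and 0 higher, and fewer were called without replicate 1 or replicate 2 of E4. The shares of all genes above belong to the main run. A loss of calls particular to the members therefore cannot be told apart from one across the arrays.

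RPN4 was the member with the second-lowest ratio in E4. Its log2 ratio was -0.41 on both arrays, and its normalized intensity was 243 and 272 at 3 µM zinc against 322 and 362 at 3000 µM zinc. The lower zinc channel was the dimmer on each array, and RPN4 transcript stood at 0.753 times the level in 3000 µM zinc (0.687 to 0.825, n = 2 arrays, limma adjusted p = 0.000411). UMP1 gave log2 ratios of -0.23 and -0.28, with intensities of 196 and 246 at 3 µM zinc against 230 and 299 at 3000 µM zinc. It was at 0.836 times the level in 3000 µM zinc (0.757 to 0.923, limma adjusted p = 0.00791), a call that was lost without replicate 2 of E4 (limma adjusted p = 0.0790).

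**Figure D3:**
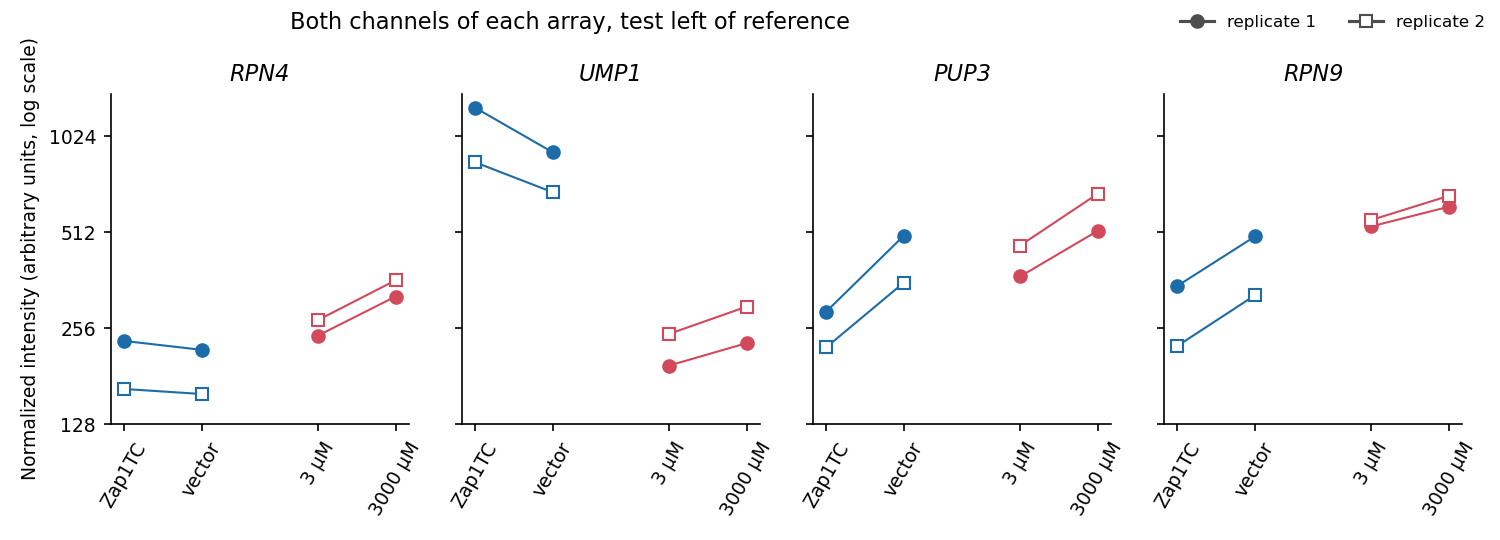
Normalized intensity (arbitrary units, log scale) of RPN4, UMP1, PUP3 and RPN9 in both channels of each array, E3 in blue and E4 in red, with circles for replicate 1, squares for replicate 2 and a line joining the channels of an array. The UMP1 lines slope down toward the vector in E3 and up toward 3000 µM zinc in E4, whereas those of PUP3 and RPN9 slope up in both. Arrays were not scaled to each other, so heights are to be compared within a line only.

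In the 20S core 7 of 14 genes were lower and 0 higher in E4, with a median log2 ratio of -0.15. The shares were 50% and 0%, against 24.9% and 25.7% of all genes. Of the lower genes, 3 were in the alpha ring and 4 in the beta ring. Fewer core genes were called lower without replicate 1 or without replicate 2 of E4, and with plain background subtraction 2 were. The shares of all genes above belong to the main run. A loss of calls particular to the core therefore cannot be told apart from one across the arrays. PUP3 had the lowest ratio of all members, -0.47 and -0.54. Its intensity was 372 and 465 at 3 µM zinc against 517 and 676 at 3000 µM zinc, so that its transcript was at 0.704 times the level in 3000 µM zinc (0.639 to 0.775, limma adjusted p = 0.000161). PRE6 followed with -0.37 and -0.41 (0.764 times, limma adjusted p = 0.000658). PUP1 (YOR157C), not called in E3, gave -0.27 and -0.18 (limma adjusted p = 0.016). The replicates disagreed in sign for PRE9, the alpha subunit that yeast can live without, at -0.06 and 0.29, and PRE8 gave the unequal pair of -0.07 and -0.39.

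In the 19S particle 2 of 17 genes were higher and 1 lower in E4. The shares were 11.8% and 5.88%, against 25.7% and 24.9% of all genes. RPT1 (YKL145W) gave log2 ratios of 0.29 and 0.15 (limma adjusted p = 0.0164) and RPT6 (YGL048C) gave 0.15 and 0.18 (limma adjusted p = 0.0464), while RPT4 (YOR259C) gave 0.16 and 0.08 and did not pass (limma adjusted p = 0.146). RPT1 was 1.16-fold and RPT6 1.12-fold higher at 3 µM zinc. With the authors' deposited log2 ratios neither passed. Over the 13 alternative runs RPT1 kept its call in 10 and RPT6 in 7. RPN9, at -0.20 and -0.25, was the 1 lower gene of the particle (0.854 times the level in 3000 µM zinc, limma adjusted p = 0.00992), a call lost without replicate 2 of E4 (limma adjusted p = 0.118). The other 10 non-ATPase genes tested had mean log2 ratios between -0.12 and 0.07.

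Of the 33 members read on all arrays, 6 were lower in both experiments (PRE6, PRE10, PUP3, PRE2, PRE7 and RPN9), 0 were higher in both and 16 were called in neither. Lower in both were 18.2% of the members, against 11.1% of the 4992 genes read on all arrays. Of those 4992 genes, 556 were higher in both and 1103 were called in neither. The 6 made up 60% of the members lower in E3 and 60% of those lower in E4, where the shares over all genes were 34.6% and 45%. The count depended on the E4 arrays, since fewer members were lower in both without replicate 1 or without replicate 2 of E4. PRE6 and PUP3 stayed lower in both in either case. The share of all genes lower in both was computed for the main run only. A loss particular to the members therefore cannot be told apart from one across the arrays. Plain background subtraction gave 2 members lower in both (PRE6 and PUP3), and the authors' deposited log2 ratios gave 9. Across the 33 members the ratios of E3 and E4 correlated with Pearson's r of 0.382 and Spearman's rho of 0.272, and across all genes with 0.456 and 0.272. These are descriptions over genes, which are not independent replicates, and all 4 arrays had the same dye orientation.

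The ratios of the 2 experiments were set against each other in the same limma fit, as E3 minus E4, over the genes that every array read. The growth medium changed along with the experiment, and its part cannot be told apart from that of the allele and the zinc level. Here 4 members were higher (UMP1, RPN4, RPN12 and PUP1) and 4 lower (RPN9, RPT1, RPT3 and RPT4), 12.1% each, against 21.6% and 26.5% of all genes. The difference was above 0 for 12 members and below 0 for 21 (47% and 53% of all genes). UMP1 had the largest difference of the members, 0.65 on the log2 scale (limma adjusted p = 0.000379). It was the 1 member called higher in E3 and lower in E4, a combination that 4.09% of all genes showed. RPN4 differed by 0.48 (0.30 to 0.67, limma adjusted p = 0.00118), since its ratio was near 0 in E3 and below 0 in E4, and for both genes the 2 arrays of E3 lay above the 2 arrays of E4.

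RPN12 differed by 0.38 (limma adjusted p = 0.0115), its E4 ratios being 0.00 and -0.09, and PUP1 by 0.32 (limma adjusted p = 0.0148). The difference of RPN9 was -0.29 (limma adjusted p = 0.0163), so RPN9 was lower in both experiments and lower by more in E3. RPT1 differed by -0.27 (limma adjusted p = 0.0289), and so did RPT3 (limma adjusted p = 0.0421), while RPT4 differed by -0.25 (limma adjusted p = 0.0430). For PUP3 the difference of -0.22 did not pass (limma adjusted p = 0.0592), nor did that of PRE6 (limma adjusted p = 0.723). With plain background subtraction 3 members differed, 0 of them lower. Fewer differed without replicate 1 of E3 or of E4 than in the main run. The shares of all genes above belong to the main run. RPN12, PUP1 and RPT1 lost their calls without replicate 1 of E3, RPT3 and RPT4 without replicate 2 of E3, RPT4 without replicate 2 of E4, and PUP1, RPN9, RPT1, RPT3 and RPT4 without replicate 1 of E4.

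**Figure D4:**
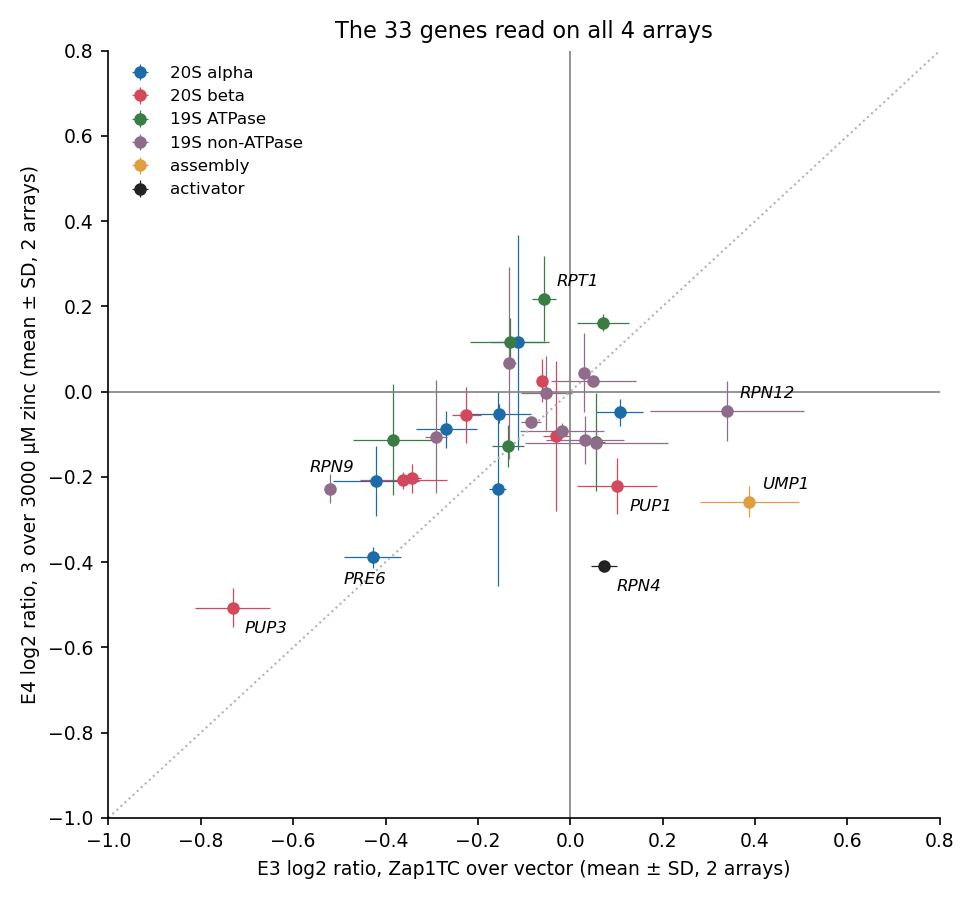
Mean log2 ratio in E3 (Zap1TC over vector, horizontal) against that in E4 (3 µM over 3000 µM zinc, vertical) for the 33 genes read on all arrays, with bars of 1 SD over 2 arrays and colours for the role. The dotted line marks equal ratios. UMP1 lies to the right of 0 in E3 and below 0 in E4, RPN4 lies below the cluster near 0 in E3, and PUP3 lies at the lower left.

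Genes that act with the proteasome were taken from 4 lists and are summarised by counts. Among 17 factors that assemble or bind the proteasome, 5 of 16 tested were higher and 4 lower in E3, and 2 of 14 tested were higher and 3 lower in E4. The shares were 31.2% and 25% in E3, where 29.3% of all genes were called in each direction, and 14.3% and 21.4% in E4, against 25.7% and 24.9% of all genes. Fewer factors were higher in E3 without replicate 1 of E3, and fewer were higher in E4 without replicate 1 of E4. No share over all genes is set beside these runs. SEM1, the small subunit of the 19S lid, was read on no array. CIC1, which binds the proteasome and also takes part in ribosome assembly, gave log2 ratios of -0.86 and -0.55 in E3 and 0.51 and 0.19 in E4 (limma adjusted p = 0.000101 and 0.0108), a difference of -1.05 (limma adjusted p = 0.000209). The E4 call of CIC1 was lost without replicate 1 of E4, at a log2 ratio of 0.19. Its Cy5 intensity was low in E3, 118 and 91 over local backgrounds of 61 and 60. In E4 it was 1112 and 1544 over 90 and 94, so the difference sets weak spots against strong ones. UBP6, a deubiquitinase bound to the 19S particle, gave 0.62 and 0.52 in E3 and 0.01 and -0.04 in E4. FUB1, a proteasome-binding protein, had a mean log2 ratio of -0.57 in E3 and -0.14 in E4, where it did not pass the test. CUZ1, a zinc-finger protein that binds Cdc48 and the proteasome, was lower in both, at -0.44 in E3 and -0.83 in E4. Its Cy5 intensity in E3 was also low, 109 and 85 over local backgrounds of 63 and 60. STS1, which helps to bring the proteasome to the nucleus, was at -0.38 in E4, and the 20S assembly chaperone ADD66 at 0.20 in E3 and 0.22 in E4.

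Of 24 genes for ubiquitin, its conjugation and ligation, and the unfoldase Cdc48, 8 were higher and 5 lower in E3 and 7 were higher and 5 lower in E4. These were 33.3% and 20.8% in E3 (29.3% each of all genes) and 29.2% and 20.8% in E4 (25.7% and 24.9% of all genes). With plain background subtraction 4 were higher in E3. Fewer were higher in E3 without replicate 1 of E3, and fewer were lower without replicate 2 of E3. In E4 fewer were higher without replicate 1 of E4 and fewer were lower without replicate 2 of E4. No share over all genes is set beside these runs. UBI4, the polyubiquitin gene, had log2 ratios of 0.33 and 0.21 in E3 and 2.07 and 1.81 in E4, which was 3.83-fold higher at 3 µM zinc. Its coding repeats are shared with the ribosomal fusion genes of ubiquitin, so part of its signal may be theirs. CDC48 was 1.23-fold higher in E3 and 1.93-fold higher in E4. The E3 call of UBI4 was lost without replicate 1 of E3 (log2 ratio 0.21) and that of CDC48 without replicate 2 (log2 ratio 0.25). UBX6, which encodes a Cdc48-binding protein, was 1.85-fold higher in E3 and 1.52-fold higher in E4, and the study singled it out partly on the E3 arrays, so its direction there is not independent evidence. UBC5 and CDC34, 2 ubiquitin-conjugating enzymes, gave mean log2 ratios of 0.98 and 0.50 in E3 and -0.06 and -0.01 in E4, where neither passed. UBC5 is nearly identical to UBC4 in sequence, and spotted probes may not fully separate them. The UBC4 spots gave log2 ratios of 0.29 and 0.04 in E3 and -0.06 and -0.52 in E4. How far the probes separate the 2 genes was not tested. UBC1, another ubiquitin-conjugating enzyme, was lower in both, at -0.66 in E3 and -0.51 in E4.

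Of 6 deubiquitinase genes 4 were tested in each experiment. Higher were 2 (50%) in E3 and 0 in E4, where 29.3% and 25.7% of all genes were called higher. Lower were 0 in E3 and 0 in E4, against 29.3% and 24.9% of all genes. The 2 were UBP6, which was also counted among the factors that bind the proteasome, and UBP15. UBP15 had log2 ratios of 0.57 and 0.57 in E3 and 0.17 and -0.01 in E4. Of 6 genes that act on RPN4 or on Rpn4 turnover, HSF1 was the 1 called in E3, at log2 ratios of 0.36 and 0.18. That was 16.7% of the 6 tested, against 29.3% of all genes called higher. PDR1 was the 1 called in E4, at -0.19 and -0.33. It was 20% of the 5 tested, against 24.9% of all genes called lower. HSF1 and PDR1 encode activators of RPN4 transcription. Both calls were lost under some settings, that of HSF1 without replicate 1 of E3 (0.18) and that of PDR1 without replicate 2 of E4 (-0.19).

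**Figure D5:**
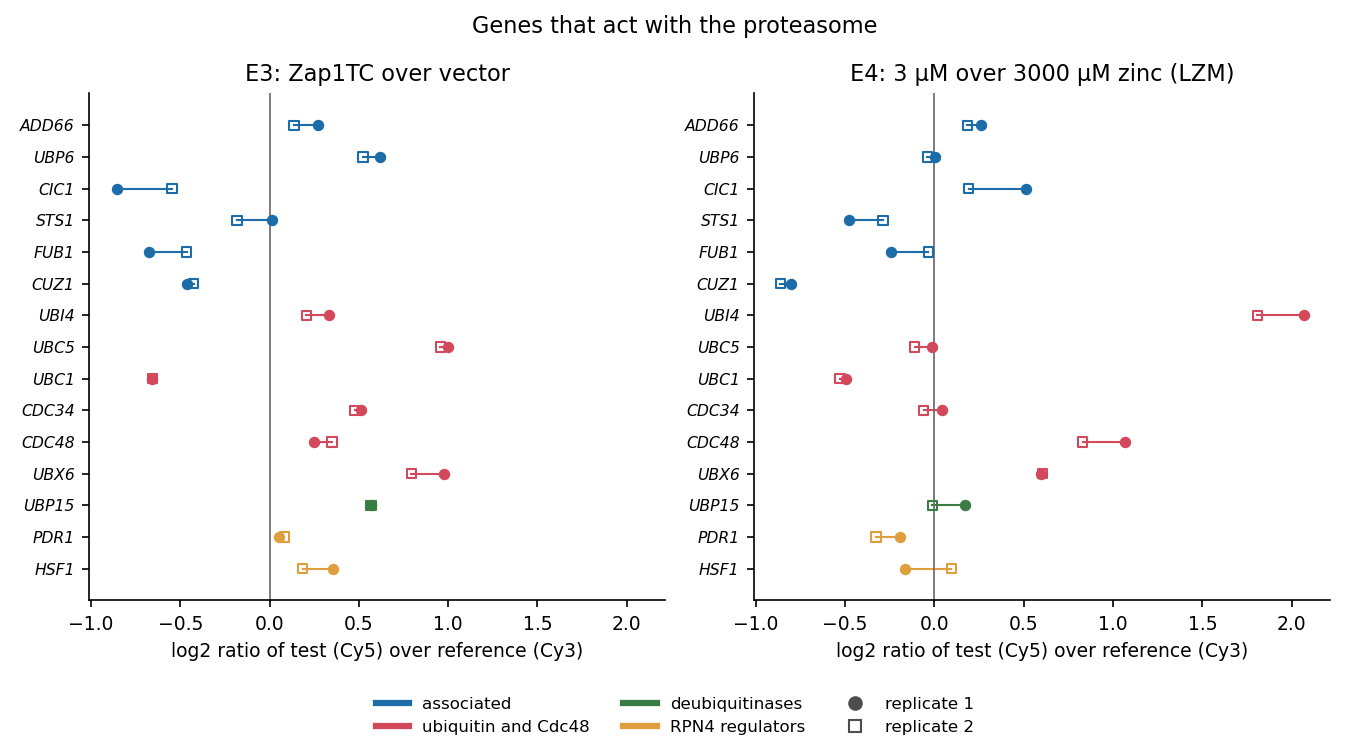
Log2 ratio of test over reference on each array for 15 genes that act with the proteasome, with E3 (Zap1TC over vector) on the left and E4 (3 µM over 3000 µM zinc in LZM) on the right, circles for replicate 1, squares for replicate 2 and colours for the list. UBI4 lies at 1.81 or above on both E4 arrays, and CIC1 lies below 0 in E3 and above 0 in E4.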

How the data were processed

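The deposited scanner tables hold mean spot and local background intensity for Cy5 (test) and Cy3 (reference). Columns with a channel scaled by the authors and the resulting ratio were not used. The authors' deposited value table of log2 ratios served as an alternative. Its correlation with the scanner ratios, 0.912 to 0.992, fixes its direction as test over reference, and its medians were -0.0211 to -0.0182. Per the study's methods, poly(A) RNA was labelled during reverse transcription and slides were LOWESS-normalised. The scanner software was not given in the sources used here.

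Intensities were background-corrected (normexp, offset 50) and loess-normalised within each array (span 0.3), and spots of an ORF were averaged on the log2 scale. limma 3.58.1 (R 4.3.3) fitted 1 coefficient per experiment over the 4 arrays, pooling the spread, since 2 arrays alone leave little to estimate it from. Tests were two-sided, and Benjamini-Hochberg adjustment ran over all genes tested. Confidence intervals (95%) are unadjusted. The number of arrays limits the precision. Symbols came from a RefSeq gene table, which matched 5538 of the 6063 genes. Genes named with full values were RPN4, UMP1, the 3 highest and 3 lowest members of each experiment and the 6 members with the largest called difference, and RPT3, RPT4 and the other members were added by range or call. Related lists gave at most 4 examples each, the called genes with the largest ratios. The members and lists were chosen with earlier results of these data known. The pipeline was tested on simulated data in which few genes changed and none had a dye effect of its own. That run cannot show how far such effects entered the calls here. Same-numbered replicates of E3 and E4 were separate cultures, so the numbers paired nothing. Promoter motifs and sequences were not analysed here.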

Additional observations from a re-analysis of the deposited data

Results flagged for a closer look

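The test of the difference itself (E3 minus E4, limma) was read for the members and for the related genes named as examples. It called 21 genes (largest limma adjusted p of 0.0430), 8 of them members and 13 related genes. By it 21.6% of the 4992 genes read on all arrays were higher and 26.5% lower. Related genes outside the examples were left out. Over the full lists, 28.6% of 14 factors that assemble or bind the proteasome were higher and 14.3% lower. Of 24 genes for ubiquitin and Cdc48, 20.8% were higher and 25% lower. Among the members the log2 difference was 0.65 for UMP1, 0.48 for RPN4, 0.38 for RPN12 and 0.32 for PUP1, and it was -0.29 for RPN9, -0.27 for RPT1, -0.27 for RPT3 and -0.25 for RPT4. UMP1 and RPN4 were the 2 of these 8 that passed under each alternative run. Among factors that assemble or bind the proteasome it was 0.59 for UBP6, 0.39 for CUZ1, 0.30 for STS1, -0.43 for FUB1 and -1.05 for CIC1. Among genes for ubiquitin and Cdc48 it was 1.04 for UBC5, 0.50 for CDC34, 0.28 for UBX6, -0.65 for CDC48 and -1.67 for UBI4. UBP15, a deubiquitinase gene, differed by 0.49, and the activator genes PDR1 and HSF1 differed by 0.33 and 0.31. The growth media of the experiments differed as well, and their part in these differences cannot be told apart.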

How the results depend on the processing

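No called member changed direction under any alternative run, and 10 of the 13 calls in E3, 3 of the 12 in E4 (PRE6, PUP3 and RPN4) and 2 of the 8 in E3 minus E4 passed under each of them. The study's fold rule, which has no test, gave 1 member in E3 (1 lower, 0 higher) and 0 in E4 (0 lower, 0 higher). Plain subtraction of the local background gave 4 members in E4 (4 lower, 0 higher), and 3 in E3 minus E4 (0 lower), with a median of -0.0921 for E3. The E3 median was -0.0548 with print-tip loess, -0.0446 with median centring and -0.107 with the authors' deposited log2 ratios, against -0.0727, and RPN4 in E3 was 0.23 with print-tip loess (limma adjusted p = 0.0082). The deposited log2 ratios gave 0 higher members in E4, and an intensity trend with a robust prior gave 1. Leaving out each array in turn gave 1 to 3 members higher in E3 and a median of -0.0910 to -0.0713. In E4 it gave 5 to 12 members, 1 to 2 higher and 4 to 10 lower, and in E3 minus E4 4 to 8 members, 2 to 5 higher and 1 to 4 lower. The lone array left in an experiment was then assumed to vary like the other arrays. Shares over all genes are given for the main run and for the fold rule only. A change in a member count under another setting therefore cannot be set against one across the arrays.

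With the replicate number as a block, 13 members were called in E3, 11 in E4 (1 higher) and 8 in E3 minus E4. Deviations of same-numbered arrays correlated with r of -0.0738 over all genes and -0.173 over the members. The planned promoter motif searches were not run, since no promoter sequence was at hand. A gene counted as dim in an experiment when at least 1 channel was above background on neither of its arrays. Genes without a spot on those arrays were counted too. Of the members 0 were dim, against 153 genes in E3 and 1307 in E4, totals that include such unread genes.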
